A study of Mus musculus with 4 samples.

Results

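The cytosolic sulfotransferases described here are 8 mouse genes, *Sult1a1*, *Sult1b1*, *Sult1c2*, *Sult1d1*, *Sult1e1*, *Sult2a1*, *Sult3a1* and *Sult5a1*. Members were taken as every non-control probe whose accession belongs to 1 of these genes, which gave 10 probes for the 8 genes, of 55681 probes and 19753 named genes on the array. The genes were picked with the liver ratios of these same arrays known, so the ratios below are a description of the members and no test of them. Liver RNA of *Rap1*-deficient mice was compared with that of wild-type mice on 4 Agilent 2-colour arrays, each carrying both genotypes. This gave 3 pairs of livers, described as biological replicates, and 1 dye swap. Whether a wild-type RNA was shared between arrays was not tested. The Rap1-/- mice lacked RAP1 in the whole body, after deletion with a *cre* driven by the adenovirus EIIa promoter that was later bred out, and the wild-type mice shared their mixed C57BL6/129SV background (90% and 10%). The labels give 30 weeks of age for both genotypes and no sex, and the study's text describes females of a somewhat later age. On replicates 1, 2 and 3 the Rap1-/- liver carried Cy5, while the dyes were exchanged on the remaining array, whose label bears number 1 and which was read as the swap of that replicate.

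Cytosolic sulfotransferases move a sulfonate group from the donor PAPS (3'-phosphoadenosine 5'-phosphosulfate) to hydroxyl or amino groups of hormones, bile acids, drugs and catecholamines, which makes them more water-soluble and usually inactive. In mouse liver several of them are known for a strong difference between the sexes, with *Sult2a1* and *Sult3a1* predominant in females. The Sult2a enzymes act on hydroxysteroids and bile acids, Sult1e1 on estrogens and Sult1a1 on phenols.

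Values are log2 ratios of Rap1-/- over wild-type liver after background correction and loess normalization within each array, with the sign of the dye swap turned. A mean is over the 3 pairs, with replicate 1 and its dye swap averaged first, and its error is the SD of the pairs. All 10 member probes were among the 27513 probes (49.4%) bright enough to be tested, that is, clearly above their background on all 4 arrays of either genotype, and 6 of them passed the fit across all probes (limma, Benjamini-Hochberg FDR under 0.15), 2 higher and 4 lower. Of all tested probes 34.5% passed, 20.8% higher and 13.7% lower, and since the members were chosen on this contrast nothing is read from their share. Without replicate 2, 7 of all tested probes and 0 of the members passed, so no call of a member held in that fit. This loss of calls ran over all probes and need not be a changed ratio of a member. The means of *Sult2a1* and *Sult3a1* were 1.32 and -2.33 without replicate 2, and 1.40 and -2.23 with it. The division of all changed probes depended on the scaling, with 60.3% of them higher here, 87.7% with median centring, 49.3% with processed signals from the scanner software and 45.3% with the value table that the authors deposited. Taken over all tested probes (probes are no independent replicates), the arrays of replicates 1 to 3 correlated with each other at r = 0.64 to 0.85 and with the dye swap at r = -0.29 to -0.24. The dye swap is therefore given as a value of its own throughout. Over all tested probes the median log2 ratio was 0.03 and the median of its absolute value was 0.18.

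*Terf2ip* encodes RAP1, and its probe A_52_P381806 cleared the background on 0 of 4 arrays for Rap1-/- liver and on 4 of 4 for wild-type liver. Its log2 ratios were -1.74, -1.92 and -1.91 on replicates 1 to 3, with -1.68 on the dye swap, and it was at least 3.33-fold lower in Rap1-/- liver. This bound rests on the dimmest signal that each array still held clearly over background, and a dye bias could shift it. The other *Terf2ip* probe, A_55_P2094079, had ratios of 1.17, 1.07, 0.88 and 0.72, and where it lies relative to the deleted part is not stated. *Xist* was well above background in both genotypes on all 4 arrays, and the probes of the Y-linked genes *Ddx3y*, *Eif2s3y*, *Kdm5d* and *Uty* were on none. Both *Xist* probes passed as higher in Rap1-/- liver. Probe A_52_P113537 had a mean of 0.36 and 0.05 on the dye swap, and probe A_52_P300376 a mean of 1.49 and -0.56 on the dye swap. Of 6 hepatocyte markers, 6 were well above background in both genotypes.

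**Figure D1:**
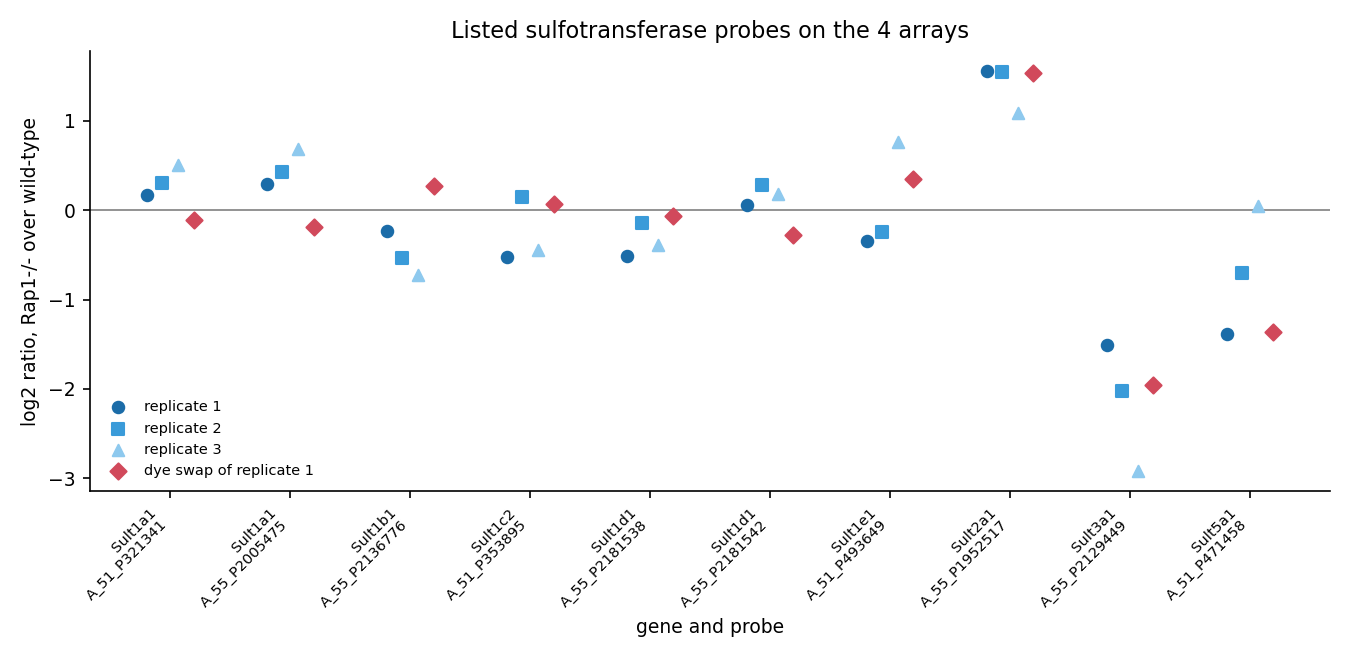
Log2 ratio (Rap1-/- over wild-type) of the 10 probes of the 8 sulfotransferase genes, 1 point per array, with the dye swap of replicate 1 as a diamond. *Sult2a1* lies above 0 and *Sult3a1* below 0 on all 4 arrays, *Sult5a1* is at 0.05 on replicate 3, and both *Sult1a1* probes change sign on the dye swap.

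*Sult2a1*, the hydroxysteroid and bile acid sulfotransferase, was higher and *Sult3a1* was lower in Rap1-/- liver on every array. For *Sult2a1* (A_55_P1952517) the log2 intensity in Rap1-/- liver was 16.03, 16.09 and 15.64 on replicates 1 to 3 and 16.12 on the swap, against 14.46, 14.54, 14.55 and 14.59 in wild-type liver. The lowest Rap1-/- value lay above the highest wild-type value. The log2 ratios were 1.56, 1.55 and 1.09 on replicates 1 to 3 and 1.53 on the dye swap, with a mean of 1.40 ± 0.27 (SD, n = 3 pairs), which is 2.63-fold. Replicate 3 was the low array, with the lowest Rap1-/- intensity beside a wild-type intensity within the range of the other arrays.

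*Sult3a1*, whose rabbit counterpart sulfonates amines, had a log2 intensity (A_55_P2129449) of 12.05, 11.61 and 10.66 in Rap1-/- liver on replicates 1 to 3 and 11.69 on the swap, against 13.56, 13.64, 13.58 and 13.64 in wild-type liver. Here too the genotypes did not overlap, with Rap1-/- values spread from 10.66 to 12.05 and wild-type values from 13.56 to 13.64. Its log2 ratios were -1.51, -2.02 and -2.92 on replicates 1 to 3 and -1.95 on the dye swap, with a mean of -2.23 ± 0.62 (SD, n = 3 pairs), or 0.214 of the wild-type level. Replicate 3 gave the strongest decrease of *Sult3a1* and the weakest increase of *Sult2a1*. The SD of the *Sult3a1* intensity over the 3 pairs was 0.64 in Rap1-/- and 0.03 in wild-type liver. For *Sult2a1* it was 0.25 and 0.01. Since a shared wild-type RNA was not tested for, a narrow wild-type range need not be the spread between wild-type mice. In whole liver, fewer cells expressing a gene and less RNA per cell cannot be told apart.

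*Sult5a1*, a little characterized sulfotransferase, was lower on 3 of the 4 arrays. Its log2 intensity (A_51_P471458) was 7.72, 8.43 and 9.12 in Rap1-/- liver on replicates 1 to 3 and 8.04 on the swap, against 9.10, 9.13, 9.07 and 9.41 in wild-type liver. The genotypes overlapped through replicate 3. The ratios of -1.38 on replicate 1 and -1.36 on its dye swap were close to each other, beside -0.70 on replicate 2 and 0.05 on replicate 3, with a mean of -0.67 ± 0.71 (SD, n = 3 pairs). The mean was -0.33 without replicate 1 and -0.66 without replicate 2, and *Sult5a1* passed in neither case, whereas without replicate 3 it was -1.04 and passed.

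**Figure D2:**
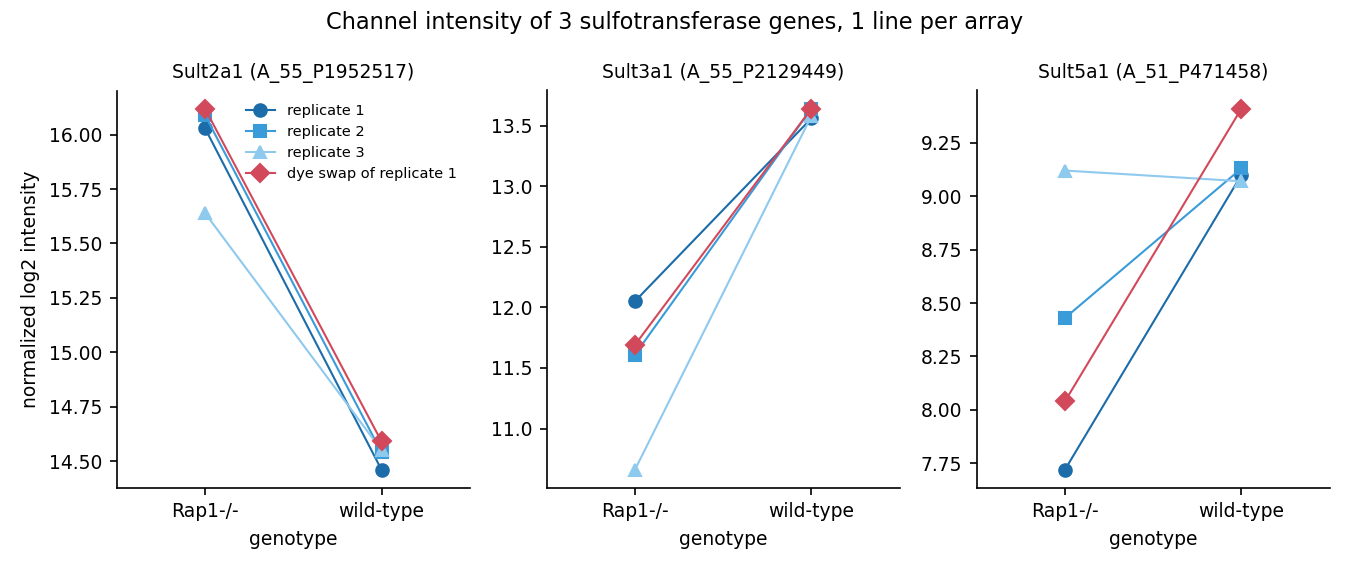
Normalized log2 intensity of *Sult2a1*, *Sult3a1* and *Sult5a1* in Rap1-/- (left) and wild-type (right) liver, 1 line per array, with an axis range of its own in each panel. All *Sult2a1* lines fall towards wild-type and all *Sult3a1* lines rise, whereas the *Sult5a1* line of replicate 3 is nearly level, at 9.12 and 9.07.

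The Sult1 genes had smaller ratios, and for several of them the sign changed with the dye. *Sult1a1*, the main phenol sulfotransferase, had log2 ratios of 0.17, 0.30 and 0.51 on replicates 1 to 3 and -0.11 on the dye swap with probe A_51_P321341, and 0.29, 0.43, 0.68 and -0.19 with probe A_55_P2005475. The probes followed the same order over the arrays, with means of 0.28 ± 0.24 and 0.39 ± 0.31 (SD, n = 3 pairs), and only the second passed. The second probe had an intensity of 14.66 to 15.03 in Rap1-/- liver and 14.35 to 14.84 in wild-type liver, and the genotypes overlapped on both probes. It passed in 5 of 11 alternatives and did not pass, among others, without replicate 3 (mean 0.24) or with a dye term (0.14).

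*Sult1b1*, an enzyme of thyroid hormone and phenol sulfonation, had the reverse pattern. Its ratios were -0.23, -0.53 and -0.72 on replicates 1 to 3 and 0.27 on the dye swap, with a mean of -0.41 ± 0.38 (SD, n = 3 pairs). Its intensity was 10.76 to 11.30 in Rap1-/- liver and 11.03 to 11.47 in wild-type liver, which overlap. *Sult1b1* passed in 4 of 11 alternatives and did not pass, among others, without replicate 3 (mean -0.25) or with a dye term (-0.11).

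*Sult1d1*, a catecholamine sulfotransferase of the mouse, was measured by 2 probes that disagreed. Probe A_55_P2181538 had ratios of -0.51, -0.14 and -0.39 on replicates 1 to 3 and -0.07 on the dye swap, with a mean of -0.28 ± 0.12 (SD, n = 3 pairs), and passed, as it did in 6 of 11 alternatives, but not without replicate 3 (mean -0.22), with a dye term (-0.21) or with median centring (-0.09). Probe A_55_P2181542 had ratios of 0.06, 0.28, 0.18 and -0.28, with a mean of 0.11 ± 0.20 (SD, n = 3 pairs), and did not pass. No direction can be given for this gene from these probes.

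*Sult1c2* had ratios of -0.52, 0.15 and -0.45 on replicates 1 to 3 and 0.07 on the dye swap, with a mean of -0.17 ± 0.31 (SD, n = 3 pairs). The estrogen sulfotransferase gene *Sult1e1* had ratios of -0.34, -0.24 and 0.76 on replicates 1 to 3 and 0.35 on the dye swap, with a mean of 0.18 ± 0.52 (SD, n = 3 pairs). Its probe cleared the background on 3 of 4 arrays for Rap1-/- liver and on 4 of 4 for wild-type liver. Its Rap1-/- intensity reached 7.73 on replicate 3 and lay between 6.31 and 6.90 on the other arrays, against 6.55 to 6.96 in wild-type liver. Neither gene passed. Over the 10 member probes the median log2 ratio was -0.03, beside 0.03 over all tested probes, and the dye swap had a median of -0.09.

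The arrays of both dye orientations had 1 direction for 3 of the 10 member probes, *Sult2a1*, *Sult3a1* and *Sult1d1* probe A_55_P2181538, beside 21.5% of all tested probes. For 4 member probes the dye swap opposed the other 3 arrays, beside 43.9% of all tested probes. With median centring *Sult1d1* probe A_55_P2181538 lost the shared direction, and with the processed signals or the authors' value table *Sult5a1* gained it. The intensities of Rap1-/- and wild-type liver did not overlap for 2 member probes, *Sult2a1* and *Sult3a1*, beside 10.5% of all tested probes.

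**Figure D3:**
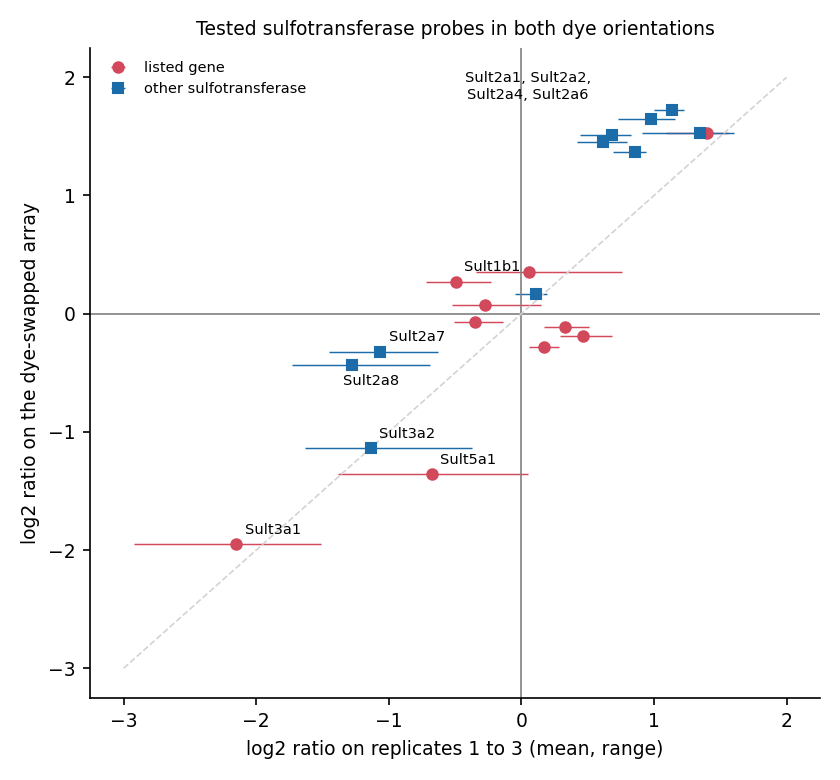
Log2 ratio (Rap1-/- over wild-type) of the 20 tested sulfotransferase probes on the dye-swapped array against replicates 1 to 3 (point at the mean, bar over the range), with the dashed line where both are equal. *Sult3a1* at -1.95 and the *Sult2a1*, *Sult2a2*, *Sult2a4* and *Sult2a6* probes lie far from 0 in both orientations, whereas the points of the Sult1 genes and *Sult4a1* lie between -0.28 and 0.35 on the dye swap.

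*Sult2a1* lies on chromosome 7 in a row of 8 protein-coding Sult2a genes and a pseudogene with no other protein-coding gene between them, in the order *Sult2a5*, *Sult2a2*, *Sult2a1*, *Sult2a4*, *Sult2a3*, *Sult2a6*, *Sult2a8* and *Sult2a7*. The array held probes for 6 of these genes, and the row divided into a part that was higher and a part that was lower. *Sult2a1*, *Sult2a2*, *Sult2a4* and *Sult2a6*, with 7 probes, were higher on all 4 arrays, whereas *Sult2a8* and *Sult2a7* at the far end, with 1 probe each, were lower on all 4. The 7 probes lay between 0.80 and 1.60 on replicate 1, 0.62 and 1.55 on replicate 2, 0.42 and 1.09 on replicate 3, and 1.37 and 1.72 on the dye swap. Replicate 3 was again the low array, and for 5 of the 7 probes the dye swap exceeded every other array. *Sult2a4* had means of 1.33 ± 0.37 (A_55_P1952507) and 1.22 ± 0.24 (A_52_P218833), *Sult2a2* of 1.06 ± 0.34 and 0.72 ± 0.36, and *Sult2a6* of 0.93 ± 0.23 and 0.79 ± 0.37 (SD, n = 3 pairs each).

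*Sult2a8*, which in the mouse is known as a bile acid sulfotransferase of the liver, had ratios of -0.69, -1.42 and -1.73 on replicates 1 to 3 and -0.43 on the dye swap, with a mean of -1.24 ± 0.61 (SD, n = 3 pairs). Its intensity was 11.95 to 12.99 in Rap1-/- liver, against 13.40 to 13.68 in wild-type liver. *Sult2a7* had ratios of -0.63, -1.11, -1.45 and -0.32, with a mean of -1.01 ± 0.50 (SD, n = 3 pairs). Both genes had their strongest decrease on replicate 3 and their weakest on the dye swap, and neither overlapped between the genotypes. The 6 probes of *Sult2a2*, *Sult2a4* and *Sult2a6* passed as higher and the 2 of *Sult2a7* and *Sult2a8* as lower. With the dye swap taken as a separate replicate 4 of these 8 probes did not pass, those of *Sult2a7* (-0.88) and *Sult2a8* (-1.07), *Sult2a2* probe A_55_P2172532 (0.82) and *Sult2a6* probe A_55_P2107223 (0.89). The 9 Sult2a probes had the same direction on all 4 arrays with each of the 4 other normalizations tried.

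These Sult2a values are not independent of each other. The genes are close copies, cross-hybridization between them cannot be told apart from separate changes, and the probe names differ between sources. The *Sult2a7* probe is named only by the study, in its list of probes deregulated in *Rap1*-deficient liver. It could thus enter only as a changed probe, and its call is no separate result. Of 9 sulfotransferase probes on that list that also carry a name by accession, 2 differ. These are A_52_P218833 (*Sult2a4* by accession, *Sult2a3* in the study) and A_55_P2172532 (*Sult2a2* by accession, *Sult2a6* in the study). The differing names of these 2 probes lie in the part of the row that was higher, where *Sult2a3* has no probe by accession. The lower part rests on 1 probe named by accession, that of *Sult2a8*, and on that of *Sult2a7*, named by the study alone.

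**Figure D4:**
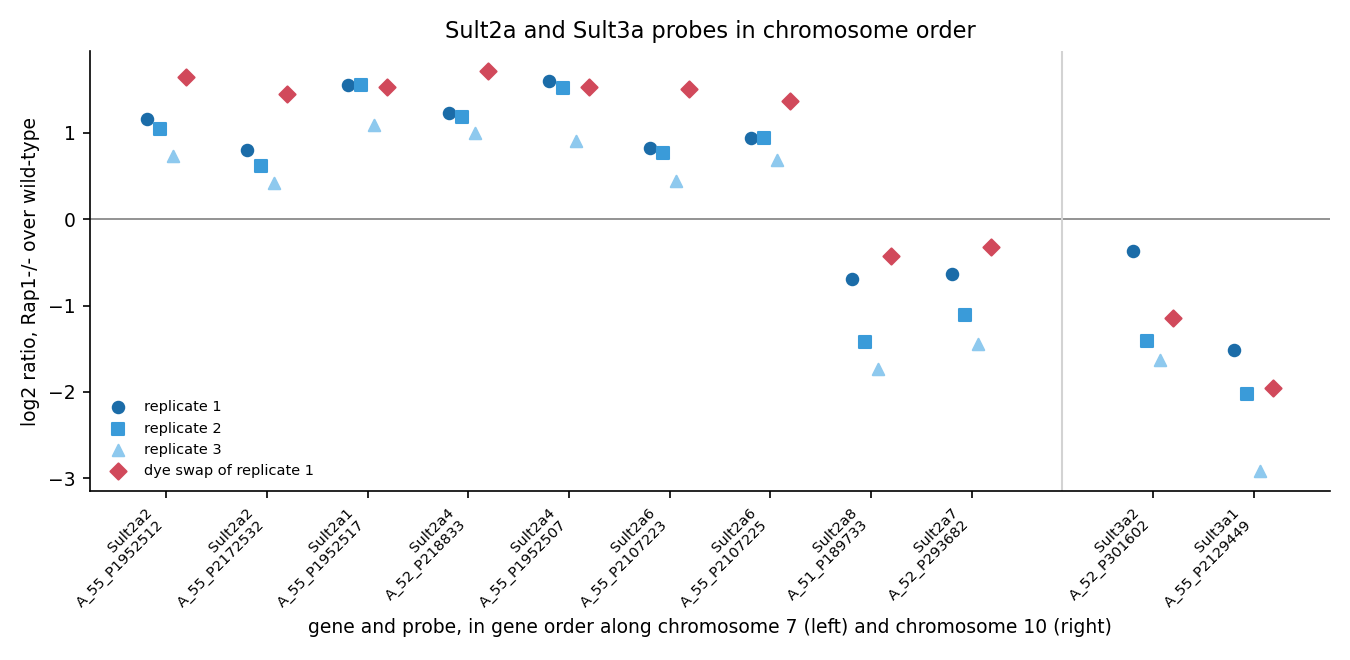
Log2 ratio (Rap1-/- over wild-type) of the Sult2a probes in the order of their genes along chromosome 7 (left) and of the Sult3a probes on chromosome 10 (right), 1 point per array. The 7 probes from *Sult2a2* to *Sult2a6* lie between 0.42 and 1.72, and those of *Sult2a8* and *Sult2a7* between -1.73 and -0.32.

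The sequences before the annotated start sites are shown for Sult2a genes of both parts of the row and for *Sult3a1*, since the ratios of these rows of genes had 1 direction on all 4 arrays, although *Sult2a3* itself has no probe by accession. They come from RefSeq (GRCm38.p6), which gave a window for 7 of the 8 listed genes and for 5 of the 8 Sult2a genes, and each run holds the 250 bases before the start, 5' to 3' on the gene's strand. Capitals mark matches on either strand to GTCATGAAC, GTTAATNAT or TTCNNNGAA. The first is most of an inverted repeat of the kind that bile acid and xenobiotic receptors are known to bind in rodent Sult2a promoters, the second is the core of HNF1 sites, and the third is the STAT5 consensus, which reads alike on both strands. The motifs were chosen after the sequences had been seen, and *Sult2a1*, *Sult2a2* and *Sult2a7* were not searched.
Sult2a4 chr7:13989589-13989838 (minus strand): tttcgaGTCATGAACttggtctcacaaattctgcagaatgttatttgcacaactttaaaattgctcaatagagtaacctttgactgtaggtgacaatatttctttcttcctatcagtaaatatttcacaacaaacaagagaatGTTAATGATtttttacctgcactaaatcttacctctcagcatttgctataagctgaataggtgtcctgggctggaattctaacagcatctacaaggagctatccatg
Sult2a6 chr7:14254871-14255120 (minus strand): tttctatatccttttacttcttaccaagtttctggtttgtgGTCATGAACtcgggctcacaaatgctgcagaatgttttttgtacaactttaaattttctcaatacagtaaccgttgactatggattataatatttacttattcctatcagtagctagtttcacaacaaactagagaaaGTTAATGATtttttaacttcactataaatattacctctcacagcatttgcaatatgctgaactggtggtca
Sult2a3 chr7:14123049-14123298 (minus strand): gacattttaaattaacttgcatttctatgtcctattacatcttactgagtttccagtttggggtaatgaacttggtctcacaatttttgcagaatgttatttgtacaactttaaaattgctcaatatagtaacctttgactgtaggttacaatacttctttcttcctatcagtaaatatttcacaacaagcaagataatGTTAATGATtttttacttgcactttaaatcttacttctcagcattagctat
Sult2a8 chr7:14446588-14446837 (minus strand): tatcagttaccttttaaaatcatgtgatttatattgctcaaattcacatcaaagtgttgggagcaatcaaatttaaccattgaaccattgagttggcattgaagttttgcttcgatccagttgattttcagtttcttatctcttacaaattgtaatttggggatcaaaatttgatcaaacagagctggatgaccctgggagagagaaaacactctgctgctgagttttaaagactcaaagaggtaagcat
Sult3a1 chr10:33857472-33857721 (plus strand): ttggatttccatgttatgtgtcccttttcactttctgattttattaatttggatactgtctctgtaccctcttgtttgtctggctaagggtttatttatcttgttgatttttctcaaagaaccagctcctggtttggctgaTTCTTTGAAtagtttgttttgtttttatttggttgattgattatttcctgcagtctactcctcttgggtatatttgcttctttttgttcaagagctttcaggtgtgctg

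GTTAATNAT was found before *Sult2a3*, *Sult2a4*, *Sult2a5* and *Sult2a6*, each time as GTTAATGAT, and before *Sult1d1* as GTTAATAAT, beside 0.737% of 32851 windows of the same length. GTCATGAAC was found before *Sult2a4*, *Sult2a5* and *Sult2a6*, beside 0.146% of the windows. Neither was found before either start of *Sult2a8* or before *Sult3a1*. TTCNNNGAA was found once among the listed genes, before *Sult3a1* as TTCTTTGAA, 109 bases from its start, beside 7.02% of the windows. No matches overlapped. In local alignments *Sult2a4* was 91.8% identical to *Sult2a3* over 194 columns and 83.9% identical to *Sult2a6* over 205, against 57.4% to *Sult2a8* over 176. The windows of Sult2a genes and *Sult3a1* were 54.7% to 59.2% identical. For *Sult2a8* only the window printed above was aligned, and that of its other start was not. The neighbours *Sult3a1* and *Sult3a2* were 58% identical, so no difference in distance is read from values near this level. A match is a description of the letters and not of a bound site.

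On chromosome 10, *Sult3a1* has *Sult3a2* as its direct protein-coding neighbour, and the ratio of *Sult3a2* was negative on all 4 arrays too. The ratios of *Sult3a2* (A_52_P301602) were -0.37, -1.41 and -1.63 on replicates 1 to 3 and -1.14 on the dye swap, with a mean of -1.27 ± 0.46 (SD, n = 3 pairs). Its intensity was 6.41 to 7.87 in Rap1-/- liver and 8.04 to 8.57 in wild-type liver, and its mean ratio was -2.18 with the processed signals. With the dye swap taken as a separate replicate it was -1.14 and did not pass. The other neighbours among the members, *Sult1b1*, *Sult1d1* and *Sult1e1* on chromosome 5, had no shared direction, with the values given above. Of the further sulfotransferases, *Sult4a1* had a mean of 0.11 ± 0.14 (A_52_P562676) and did not pass. *Sult1c1*, *Sult6b1*, *Sult6b2* and the other *Sult4a1* probe were well above background on 0 of 4 arrays in either genotype, and *Sult2b1* on 1 of 4 in each. Over the 10 tested probes of sulfotransferases beyond the 8 genes, 6 passed as higher and 3 as lower, with a median of 0.76, and 1.41 on the dye swap. These counts hold *Sult2a2*, *Sult2a4* and *Sult2a6* with 2 probes each, and *Sult2a7* by a probe named only from the study's list of deregulated probes. With 1 probe a gene, 3 of 7 genes were higher, 3 were lower and 1 did not pass, with a median of 0.11, and 0.17 on the dye swap. Of all tested probes, 20.8% passed as higher and 13.7% as lower. The further sulfotransferases were listed with earlier results of these data known, so nothing is read from their counts.

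Among the genes outside the family whose 4 ratios came closest to those of *Sult2a1* were the interferon-inducible gene *Ifi208*, the cytochrome P450 gene *Cyp2a22* and *Fitm1*, which acts in lipid droplet formation. Their root mean square differences from *Sult2a1* over the 4 arrays were 0.43, 0.44 and 0.46 log2 units, the smallest among 16712 named probes. For *Sult3a1* the closest by the same measure were *Terf2ip* (probe A_52_P381806), *Slco1a1* and *Egfr*. In Rap1-/- liver *Terf2ip* cleared the background on 0 of 4 arrays and *Slco1a1* on 1 of 4, so their ratios are limited by the background and no distance is given for them. *Egfr*, the epidermal growth factor receptor gene, cleared it on 4 of 4 arrays in both genotypes and lay 0.71 log2 units from *Sult3a1*.

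The genes that supply and clear the sulfonate donor showed no common direction. Of 6 measured genes of PAPS supply and disposal, 1 was higher, 3 were lower and 2 did not pass, with a median log2 ratio of -0.11 and 0.11 on the dye swap. *Slc26a1*, a sulfate transporter of the hepatocyte surface, had ratios of 0.60, 0.97 and 0.69 on replicates 1 to 3 and 0.09 on the dye swap. The PAPS synthase genes had means of -0.44 ± 0.32 for *Papss1* and -0.29 ± 0.14 for *Papss2*, with 0.53 and -0.11 on the dye swap. *Slc35b3*, a transporter of PAPS into the Golgi, had a mean of -0.57 ± 0.18 and 0.12 on the dye swap. *Papss2* was thus the PAPS gene that passed as lower with a negative ratio on all 4 arrays. *Bpnt1*, a phosphatase that clears the spent donor, was counted by probe A_52_P238846, with a mean of 0.09, which did not pass. Its other probe, A_55_P2185950, passed as higher with a mean of 0.61 and ratios of 1.07, 1.06 and 0.11 on replicates 1 to 3 and 0.27 on the dye swap. Of 10 measured sulfatase genes and their modifying factors, 5 were higher, 1 was lower and 4 did not pass, with a median of 0.07 and -0.07 on the dye swap. The heparan sulfatase gene *Sgsh* had a mean of 0.76 ± 0.64 and -0.86 on the dye swap (A_55_P2028570), and its other probe, with a mean of 0.21, did not pass.

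Genes of sex-biased liver expression, and markers of other cells, moved beside the sulfotransferases as follows, and their part in the sulfotransferase ratios was not tested. Of 15 measured genes predominant in female liver, 6 were higher, 4 lower and 5 did not pass, with a median of 0.19 and -0.08 on the dye swap. Of 12 measured genes predominant in male liver, 1 was higher, 7 were lower and 4 did not pass, with a median of -0.64 and -0.48 on the dye swap, and 10 were well above background on all arrays in Rap1-/- liver against 12 in wild-type liver. Among the 7 lower, *Hsd3b5* cleared the background on 0 of 4 arrays in Rap1-/- liver and *Slco1a1* on 1 of 4. The summed intensity of the male-biased genes was 59800 to 92900 in Rap1-/- liver, against 115000 to 130000 in wild-type liver. The wild-type sum is mostly *Mup20* (A_55_P2051486). Its log2 intensity was 14.49 to 15.56 in Rap1-/- liver and 15.93 to 16.25 in wild-type liver. The female-biased genes summed to 159000 to 207000 in Rap1-/- liver and 163000 to 180000 in wild-type liver. *Sult2a1* and *Sult3a1*, both predominant in females, thus lay on opposite sides. The 6 hepatocyte markers summed to 306000 to 452000 in Rap1-/- liver and 277000 to 418000 in wild-type liver, with 1 higher and 5 that did not pass. Of 5 measured Kupffer cell and macrophage markers, 1 was lower and 4 did not pass, with a sum of 16400 to 59800 in Rap1-/- liver and 26700 to 29200 in wild-type liver. Their median log2 ratio was 0.37, and -0.31 on the dye swap. On replicate 3 the ratios were 2.71 for *Marco*, 1.38 for *Adgre1*, 1.14 for *Cd5l* and 0.97 for *Clec4f*, against -0.98 to 0.53 for these 4 genes on the other arrays. The remaining marker, *Vsig4*, was the 1 that passed as lower and did not share this rise. Its ratios were -1.05, -0.24 and -0.14 on replicates 1 to 3 and 0.13 on the dye swap. Replicate 3 also held the highest ratios of the fibroblast collagen genes, 1.85 for *Col1a1* and 1.37 for *Col3a1*. The other stellate cell and fibroblast markers had smaller ratios there, 0.58 for *Dcn*, 0.19 for *Des*, 0.07 for *Reln* and 0.02 for *Lrat*. *Des* was highest on replicate 1 (0.22) and *Reln* on replicate 2 (0.44). Replicate 3 was the array with the strongest decrease of *Sult3a1* and the weakest increase of *Sult2a1*, whose means without it were -1.88 and 1.55, and both passed. Of the measured markers of other liver cells, 2 of 5 for sinusoidal endothelium, 0 of 6 for stellate cells, 1 of 3 for bile duct cells and 1 of 2 for adipocytes were higher, and 0 were lower. Of all tested probes, 20.8% were higher and 13.7% lower. Both endothelial genes had a negative dye swap, -0.35 for *Kdr* (A_55_P2094469) and -0.09 for *Pecam1*. The other *Kdr* probe, with a mean of 0.06, did not pass. The bile duct gene *Krt19* had 0.28 on the dye swap. Among the adipocyte markers, *Cidec* had ratios of 1.53 on replicate 1 and 1.16 on its dye swap, beside 0.43 and 0.24 on replicates 2 and 3 (A_55_P1969131). The other *Cidec* probe, with a mean of 0.10, did not pass. *Fabp4* had ratios of 0.48 on replicate 1 and 1.53 on its dye swap, beside -0.30 and -0.02 on replicates 2 and 3, and did not pass. *Adipoq* had ratios of 1.73 on replicate 1 and 1.85 on its dye swap, beside 0.07 and -0.23 on replicates 2 and 3, and was not tested, since it cleared the background on 3 of 4 arrays for Rap1-/- liver and on 0 of 4 for wild-type liver. Replicate 1 and its dye swap held the lowest *Sult5a1* ratios. These genes were named after their values had been seen. Of 3 intestinal and 3 kidney markers on the array, which stand for other tissues that express sulfotransferases, 1 of each was well above background in both genotypes and neither passed.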

How the data were processed

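The members and gene lists were chosen with earlier results of these data known. Liver RNA of 3 pairs, described as biological replicates, was hybridized to 4 Agilent 2-colour arrays on 1 slide. RNA integrity numbers were 6.6 to 8.7 per the labels. Spot intensities were deposited for each scan, made with Agilent Feature Extraction 10.7.3.1. The log10 ratio (red over green processed signal) deposited beside them was used for checks only. The authors also deposited a table of log2 ratios, credited to limma, without stating how background and dye bias were treated. Set against the scans, its dye-swap column was already turned. Median intensities were corrected by normexp (offset 50) and normalized by loess within arrays in limma 3.58.1 under R 4.3.3, and spots with an outlier flag were left out. Intensities per genotype followed quantile normalization of the mean intensities (Aquantile). Testing needed a share of 0.5 or more of a probe's spots over background (the scanner's call) on all arrays of 1 genotype or the other. Differences were fitted with lmFit and eBayes (intercept over 3 pairs), Benjamini-Hochberg adjusted over 27513 probes, and called at an FDR under 0.15. The fit was tested on simulated data drawn without a dye effect, which cannot show how the dye moves the calls. Probes carry accessions, and 26056 were named through a RefSeq table (GRCm38.p6). Lists used 1 probe a gene, that of the highest mean intensity. The text names all member and sulfotransferase probes, up to 4 genes of other lists with the largest mean ratio, and the 3 genes closest to the members with the largest rise and fall. The number of arrays limits the precision, and the depth of a spot has no count.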

Additional observations from a re-analysis of the deposited data

Results flagged for a closer look

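For 4 probes of the listed sulfotransferases, all 3 arrays with the Rap1-/- liver in Cy5 lay on one side of 0 and the dye-swapped array on the other. The dye swap had a log2 ratio of -0.11 for *Sult1a1* probe A_51_P321341 and -0.19 for probe A_55_P2005475, against 0.17 to 0.68 over both probes on the other arrays. It was 0.27 for *Sult1b1*, against -0.72 to -0.23, and -0.28 for *Sult1d1* probe A_55_P2181542, against 0.06 to 0.28. The differences were not tested, since the other dye orientation was hybridized once. Of all tested probes, 43.9% showed the same opposition.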

How the results depend on the processing

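The *Sult2a1* and *Sult3a1* ratios kept their direction in all 11 alternatives, within 1.30 to 1.60 and -2.47 to -1.88, and passed in 10 of them. Without replicate 2 neither passed. Leaving out 1 replicate in turn, 0 to 7 member probes passed (0 without replicate 2, where 3 had an unadjusted p under 0.05), and 7 to 12596 of all probes did, 7 without replicate 2 and 2735 without replicate 3. When the dye swap counted as a further replicate 2 member probes passed, 4 as higher and 0 as lower of the other sulfotransferase probes, and 83 of all, with a dye term 3 member probes and 1844 of all, and without the dye-swapped array 14496 of all passed. With median centring 2 member probes passed, the median of all tested probes moved to 0.17, and the list medians with 1 probe a gene were 0.27 for the other sulfotransferases (0.11 with loess), 0.07 for PAPS supply (-0.11 with loess) and 0.20 for sulfatases (0.07 with loess). *Sult1e1* ranged from -0.12 (without replicate 3, where it reversed) to 0.38 (without replicate 2), and *Sult1d1* probe A_55_P2181542 reversed to -0.05 with a dye term. The cause was not tested. *Sult5a1* had a range of -1.04 to -0.33 and passed in 6 of 11 alternatives. The counts of member probes by dye orientation were repeated with 4 normalizations chosen after seeing the data and stayed within 3 to 4 opposed and 2 to 4 shared. Each array holds both genotypes, so the fit over 3 pairs of livers is itself the paired analysis, and no other replicate block was fitted. The fit took the pairs as independent. Had they shared a wild-type RNA, which was not tested, the spread between wild-type mice would be missing from the SDs and the calls.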
